A study of Mus musculus with 12 samples.

Results

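The comparison described here is that of orthotopic oral tumours of mice given an antibody against the receptor CSF1R (aCSF1R) with those of mice given control IgG (Ctrl-IgG). Its members were the libraries labelled with these treatments, 3 of each, which made 6 of the 12 libraries of the series. The other 6 came from tumours treated with the cytokine interleukin-10 joined to an Fc domain (IL-10-Fc) or with BF10, in which the cytokine is joined to the CSF1R antibody, and are used only at the end. Per the labels, MTC-Q1 cells, a mouse oral cancer line, were injected into C57BL/6 mice, and every treatment began at a tumour volume of 100 mm3. The study's methods name the injected cells as a luciferase-expressing subline (Q1-2) and the antibody as clone AFS98. Age and sex were not given in the labels, and the dosing was stated as 6 doses in the treatment protocol and as 4 in the series design. The labels give all groups the same host strain and implanted line and set Ctrl-IgG and aCSF1R apart by the injected protein alone. For Ctrl-IgG this protein is labelled as an isotype control of the form IgG1-Fc, while the treatment label of aCSF1R gives no isotype. The injected proteins may thus differ in more than their target, and the part of this in the results below was not tested. H2-Ea, an MHC class II gene that C57BL/6 mice are known not to express, was at 0.04 to 0.27 FPKM in the 6 libraries compared here. It was at 552.78 to 1726.81 FPKM in the 6 libraries labelled IL-10-Fc or BF10, so these go against the labelled strain, and the reason was not tested. RNA came from whole tumour pieces, so for every gene below fewer cells of a type and less RNA per cell cannot be told apart.

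CSF1R is the receptor tyrosine kinase through which the ligands CSF1 and IL-34 keep monocyte-derived macrophages alive and let them mature. Macrophages of a tumour carry complement C1q, Fc receptors and lysosomal proteases, and antibodies that block CSF1R are used to lower their number. Monocytes, neutrophils and mast cells depend on other growth factor receptors to a larger extent. Of the tissues around an oral tumour, the mucosal epithelium is recognised by keratins such as Krt13 and Krt4, and skeletal muscle by actin and myosin genes such as Acta1 and Myh1.

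Before the results, 1 property of the libraries has to be given, since it was spread unevenly over the groups. The summed FPKM (fragments per kilobase of transcript, scaled for depth) of 35 keratinocyte genes was 30.1, 15.3 and 3806 in the Ctrl-IgG group, given here and below in the order of replicates 1 to 3. It was 2402, 3679 and 33.1 in the aCSF1R group. That of 38 skeletal muscle genes was 441, 281 and 2279 in Ctrl-IgG and 1604, 1548 and 525 in aCSF1R. Ctrl-IgG replicate 3 and aCSF1R replicates 1 and 2 thus held RNA of both tissues, and the other 3 libraries held little of either. Krt13, for example, was 0.03, 0.00 and 346.46 FPKM in Ctrl-IgG and 530.01, 559.67 and 0.59 FPKM in aCSF1R. Ctrl-IgG replicate 2 stood apart in another way, with an FPKM sum of 819001 against 657090 to 701275 in the other 5 libraries and 7.19% of it from mitochondrially encoded genes against 3% to 3.61%. Across the tested genes its Pearson correlation with the other libraries was 0.881 to 0.931, against 0.939 to 0.986 among these (across genes, which are not independent replicates). Relative depth ranged from 0.94 to 1.17. The medians of the main gene lists are therefore also given within the 3 libraries that held keratinocyte and muscle RNA (2 aCSF1R, 1 Ctrl-IgG) and within the 3 that held little (1 aCSF1R, 2 Ctrl-IgG), as differences of means with no test.

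**Figure D1:**
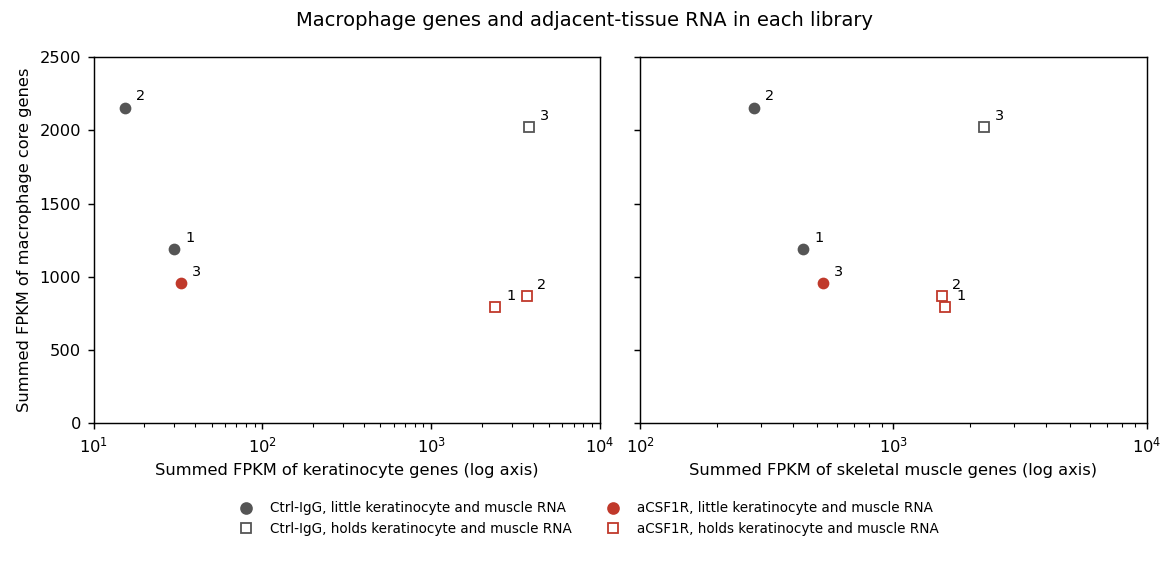
Summed FPKM of the 25 macrophage core genes (vertical, linear) against that of the keratinocyte genes (left) and of the skeletal muscle genes (right, both log axes), 1 point per library with its replicate number. The 3 aCSF1R libraries lay at 792 to 955 on the vertical axis whether or not they held keratinocyte and muscle RNA, and the 3 Ctrl-IgG libraries at 1190 to 2156.

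Over all genes, limma called 0 of the 14389 tested genes (0%) at an adjusted p under 0.05 and a change of at least 1.5 fold. The smallest adjusted p was 0.393, of the predicted gene Gm16477, and limma adjusted p values of the genes named below were 0.522 to 0.982. No gene below therefore passed the test, and the words higher and lower only order the groups. At an unadjusted p under 0.05 limma found 570 genes (3.96%), 254 lower in aCSF1R (1.77%) and 316 higher (2.20%). This split depended on the scaling, with 335 lower and 236 higher under median-of-ratios size factors, 400 and 297 after quantile normalization, and 192 and 370 after rescaling to TPM. All 3 aCSF1R libraries lay below all 3 Ctrl-IgG libraries in 902 genes (6.27%) and above them in 1310 (9.10%). These shares are the background for the counts of each gene group. The median difference over all tested genes was 0.12 on the log2(FPKM + 1) scale, and it was -0.01 with median-of-ratios size factors and 0.21 after rescaling to TPM, so small shifts of a group are not read as differences.

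The antibody's own target was measured first. Csf1r was 8.56, 7.33 and 22.10 FPKM in Ctrl-IgG and 6.91, 8.14 and 7.42 FPKM in aCSF1R. Only Ctrl-IgG replicate 3, a library with keratinocyte and muscle RNA, was well above the rest, and the groups overlapped (difference -0.53, SE 0.39, limma adjusted p 0.715). The difference was -0.08 among the libraries with little of that RNA and -1.44 among those holding it. The ligand genes also overlapped, with Csf1 at 36.49, 12.68 and 26.71 FPKM in Ctrl-IgG and 37.15, 43.13 and 32.45 FPKM in aCSF1R, and Il34 at 3.71 to 9.19 FPKM against 8.18 to 11.38 FPKM. An antibody acts on the protein, so the transcript does not check the labels.

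Genes of the macrophage core were lower in aCSF1R than in Ctrl-IgG in most cases. Of the 23 tested members (of 25 listed), 13 were lower in all 3 aCSF1R libraries than in any Ctrl-IgG library, against 6.27% of all genes, and none was higher in all 3. An unadjusted p under 0.05 was reached by 12, all lower, against 1.77% of all genes, and the median difference was -0.76 against 0.12. C1qa, C1qb and C1qc encode the chains of C1q, the recognition part of the classical complement pathway, and lie side by side on chromosome 4 (136880129 to 136898803, GRCm38). C1qa was 120.46, 144.46 and 230.55 FPKM in Ctrl-IgG and 64.96, 65.15 and 55.35 FPKM in aCSF1R (difference -1.35, SE 0.26, limma unadjusted p 0.00140). C1qb was 115.69 to 225.87 FPKM against 61.46 to 71.90 FPKM, and C1qc 91.70 to 183.74 FPKM against 45.26 to 55.65 FPKM. In all 3 chains every aCSF1R library was below every Ctrl-IgG library, and the aCSF1R libraries lay close together. Aif1, the macrophage protein IBA1, was 41.01, 85.69 and 56.78 FPKM in Ctrl-IgG and 14.14, 18.53 and 21.36 FPKM in aCSF1R (difference -1.66, SE 0.30, unadjusted p 0.00106). Adgre1, which encodes the marker F4/80, was 7.63, 22.61 and 13.28 FPKM against 5.57, 6.06 and 6.46 FPKM. For Adgre1, too, the groups did not overlap, but the gap between the lowest Ctrl-IgG and the highest aCSF1R library was narrow. Ms4a7, Ctss (cathepsin S), Lgmn (legumain), Tyrobp (the adaptor DAP12) and Cybb (an NADPH oxidase subunit) also had non-overlapping groups, with differences from -1.68 for Ms4a7 to -0.57 for Lgmn.

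Other macrophage genes did not follow. Cd68, a lysosomal glycoprotein, was 53.84, 43.86 and 70.85 FPKM in Ctrl-IgG and 41.72, 53.11 and 53.69 FPKM in aCSF1R, and Cd14, the LPS co-receptor, 20.78 to 30.79 FPKM against 21.24 to 28.04 FPKM. Mertk, a receptor for dying cells, and Laptm5 had differences of 0.15 and -0.12. Spi1, which encodes the myeloid transcription factor PU.1, was 15.20, 9.96 and 23.88 FPKM against 6.48, 9.03 and 11.20 FPKM. These groups overlapped. The summed FPKM of the 25 genes was 1190, 2156 and 2023 in Ctrl-IgG and 792, 866 and 955 in aCSF1R, a ratio of group means of 0.487.

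The size of the macrophage difference varied with the keratinocyte and muscle content. The median over the 23 tested genes was -0.40 among the libraries with little of that RNA and -1.17 among those holding it. Within both, 18 of the genes were lower in aCSF1R. For the 13 genes without overlap this direction is fixed, and they also fix the sign of both medians. The signs are therefore no check against this content. With a term for this content in the fit, the median was -0.82 and 12 genes were lower at an unadjusted p under 0.05. Without Ctrl-IgG replicate 2 the median was -0.79. The closest pair across the groups was Ctrl-IgG replicate 1 with a macrophage sum of 1190 and aCSF1R replicate 3 with 955, which both held little keratinocyte and muscle RNA. Between these libraries Fcgr1, for example, was 22.33 and 19.58 FPKM, whereas C1qa was 120.46 and 55.35 FPKM.

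**Figure D2:**
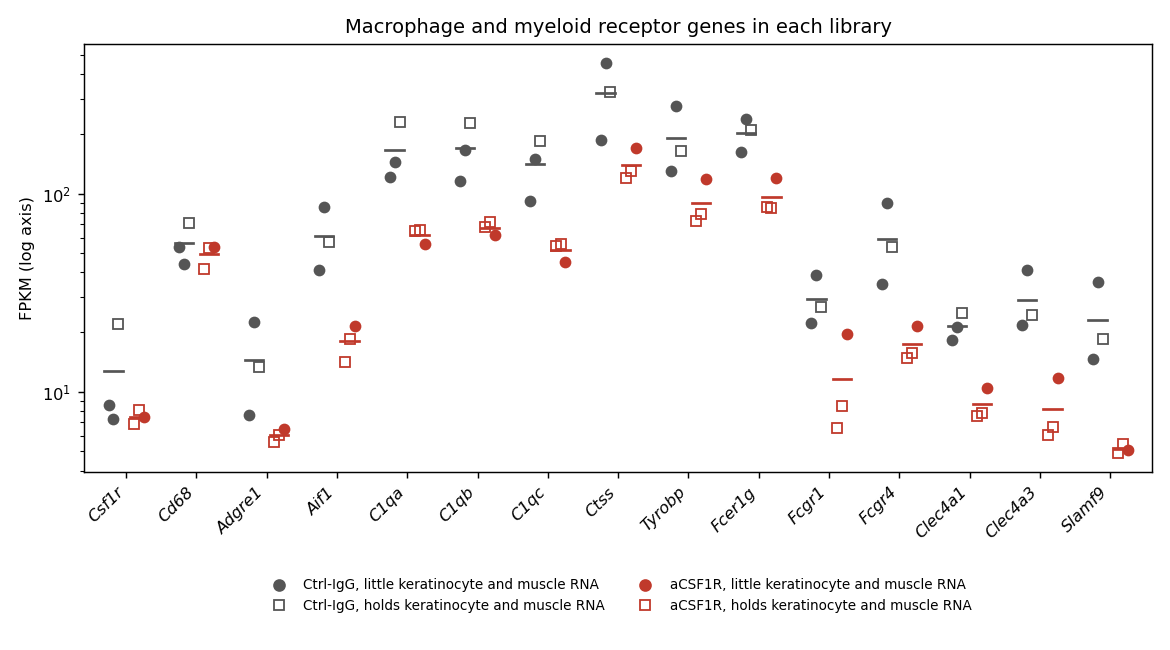
FPKM (log axis) of 15 macrophage and myeloid receptor genes in each library, with horizontal bars at the group means (n = 3 each) and open squares for libraries holding keratinocyte and muscle RNA. Csf1r and Cd68 overlap between the groups, while in the C1q genes, Aif1 and Slamf9 all 3 aCSF1R libraries lie below the Ctrl-IgG libraries.

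Fc receptors and inhibitory immune receptors, through which macrophages read antibodies and neighbouring cells, were lower in a still larger share. Of 18 tested members, 13 were lower in all 3 aCSF1R libraries and at an unadjusted p under 0.05, against 6.27% and 1.77% of all genes. Slamf8, 1 gene, was higher in both senses, against 9.10% and 2.20%. Fcgr1 was also used among the macrophage genes above, so the lists are not separate evidence. Fcer1g, the signalling chain shared by activating Fc receptors, was 161.34, 237.69 and 209.30 FPKM in Ctrl-IgG and 85.43, 84.49 and 119.72 FPKM in aCSF1R (difference -1.06, SE 0.22, limma unadjusted p 0.00212). Fcgr4 was 35.13, 89.15 and 53.51 FPKM against 14.80, 15.72 and 21.54 FPKM (difference -1.63, SE 0.35). Fcgr1, the high-affinity IgG receptor, was 22.33, 39.01 and 26.89 FPKM against 6.57, 8.51 and 19.58 FPKM. The aCSF1R library with little keratinocyte and muscle RNA, replicate 3, had the highest of the aCSF1R values in all of these receptors. Fcgr3, the inhibitory Fcgr2b, Lair1, Sirpa, Cd84 and Cd48 were also lower without overlap. Slamf8 was 12.27, 10.23 and 11.24 FPKM in Ctrl-IgG and 17.73, 20.03 and 19.75 FPKM in aCSF1R (difference 0.72, SE 0.16). The median of the list was -0.77, -0.58 among the libraries with little keratinocyte and muscle RNA and -0.84 among those holding it.

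Myeloid C-type lectins form a cluster on mouse chromosome 6, where Clec4a1, Clec4a2, Clec4a3 and Clec4b1 are close paralogs whose reads may be shared. Of 17 tested genes of the lectin list, 9 were lower in all 3 aCSF1R libraries, against 6.27% of all genes. At an unadjusted p under 0.05, 9 were lower, against 1.77%, and none was higher by either measure. The median was -0.86, -0.71 among the libraries with little keratinocyte and muscle RNA and -1.06 among those holding it. Without Ctrl-IgG replicate 2, the library that stood apart, it was -0.54. Clec4a1 was 18.32, 21.34 and 24.96 FPKM in Ctrl-IgG and 7.59, 7.84 and 10.46 FPKM in aCSF1R (difference -1.23, SE 0.20). Clec4a3 was 21.80, 41.05 and 24.26 FPKM against 6.08, 6.68 and 11.69 FPKM. Clec12a, an inhibitory lectin, was 10.21, 25.13 and 13.69 FPKM against 4.32, 4.59 and 5.43 FPKM. In each of them the groups were separated. Lectins that sense fungi and damage did not share this, with Clec7a (Dectin-1) at 14.10 to 31.17 FPKM against 15.55 to 22.24 FPKM, and Clec4d and Clec4e with differences of 0.30 and 0.17. The study named 5 genes as lowered by the antibody, of which 4 passed the filter. One of its names, Clec4a, is not the symbol of a single mouse gene in the files and was read here as Clec4a2, a choice among the paralogs above. Slamf9 was 14.63, 35.67 and 18.45 FPKM in Ctrl-IgG and 4.94, 5.43 and 5.07 FPKM in aCSF1R (difference -1.86, SE 0.33, limma unadjusted p 0.000902). Without Ctrl-IgG replicate 2, the highest library, the Slamf9 difference was -1.50. Clec4a2 (-2.07), Clec4b1 (-1.41) and Dpep2 (-0.83) were also lower, Dpep2 with overlap. Lilra5 was at most 0.42 FPKM in every library and was not tested. That list was chosen on these libraries and is not independent evidence of its direction.

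Promoter sequences of members that moved together are shown here because their upstream bases are where macrophage and interferon factors are known to bind. RefSeq (GRCm38.p6) windows of 250 bases before a start site were searched on both strands for short motifs. These were GAGGAAG, the core bound by PU.1, and TTCNNNGAA, the interferon-gamma activated site, each searched for separately. Both were picked with the expression values known. GAGGAAG was found in 10.6% of 32851 windows and in 12% of 27025 genes. It was found in 6 of the 15 tested macrophage core genes with a window, in 8 of 16 Fc and inhibitory receptor genes, in 6 of 14 lectin-list genes and in 0 of 19 interferon gamma response genes. TTCNNNGAA was found in 8.13% of genes, and in 1, 1, 2 and 9 genes of these lists. A match is a description of these letters and not a site in use. Slamf9 (chr1:172475110-172475359, plus strand), Fcgr4 (chr1:171018676-171018925, plus strand) and Fcgr1 (chr3:96293970-96294219, minus strand) are given with GAGGAAG or its reverse complement in capitals, and Gbp5 (chr3:142496684-142496933, plus strand) with TTCNNNGAA in capitals.
Slamf9: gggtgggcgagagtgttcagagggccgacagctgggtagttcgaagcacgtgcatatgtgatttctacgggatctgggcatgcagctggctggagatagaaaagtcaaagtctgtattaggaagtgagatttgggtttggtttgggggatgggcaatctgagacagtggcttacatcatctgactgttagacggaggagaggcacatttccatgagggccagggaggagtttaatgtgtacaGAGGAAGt
Fcgr4: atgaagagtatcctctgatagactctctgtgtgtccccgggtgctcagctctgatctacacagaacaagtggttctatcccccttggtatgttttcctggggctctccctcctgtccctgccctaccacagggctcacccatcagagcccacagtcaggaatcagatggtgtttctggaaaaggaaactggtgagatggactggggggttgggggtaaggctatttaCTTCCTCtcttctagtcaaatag
Fcgr1: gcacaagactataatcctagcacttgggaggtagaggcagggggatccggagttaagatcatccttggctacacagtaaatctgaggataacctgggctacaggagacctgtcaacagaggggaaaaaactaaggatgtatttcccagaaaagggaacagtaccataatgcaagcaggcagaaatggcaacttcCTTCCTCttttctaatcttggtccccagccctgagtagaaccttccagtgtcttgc
Gbp5: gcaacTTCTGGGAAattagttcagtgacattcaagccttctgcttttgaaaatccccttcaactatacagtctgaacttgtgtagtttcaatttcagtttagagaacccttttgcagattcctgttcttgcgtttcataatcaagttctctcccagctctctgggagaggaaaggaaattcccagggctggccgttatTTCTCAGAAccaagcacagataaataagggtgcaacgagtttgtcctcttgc

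The match in Slamf9 began 8 bases before the start site, that in Fcgr4 23 bases and that in Fcgr1 56 bases before it. Gbp5 held 2 matches, the nearer beginning 52 bases before the start.

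Genes of alternatively activated macrophages were divided. Msr1, a scavenger receptor, was 19.50, 42.98 and 21.18 FPKM in Ctrl-IgG and 7.52, 7.37 and 13.78 FPKM in aCSF1R (difference -1.42, SE 0.37), and Cd200r1 was lower too (-0.84), both without overlap. Mrc1, the mannose receptor CD206, and the chemokine Pf4 were lower at an unadjusted p under 0.05 with overlap. Arg1 (arginase) was 18.13, 8.72 and 22.37 FPKM against 18.72, 34.94 and 48.08 FPKM, and Chil3 13.70 to 38.18 FPKM against 6.02 to 38.20 FPKM. Of the 19 tested genes 4 were lower and 1, Il1rn, was higher at that limit, against 1.77% and 2.20% of all genes. The median of the list was -0.09, and it was 0.41 among the libraries with little keratinocyte and muscle RNA and -0.67 among those holding it. The list as a whole thus had no stable direction.

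Monocyte genes showed a similar division, with a median of -0.44, which was 0.27 among the libraries with little keratinocyte and muscle RNA and -0.64 among those holding it. Ms4a4c was 49.74, 38.50 and 55.76 FPKM in Ctrl-IgG and 13.02, 14.22 and 31.51 FPKM in aCSF1R, and Ly86 15.93 to 61.11 FPKM against 9.19 to 10.44 FPKM, neither with overlap. The classical monocyte markers Ly6c2 and Ccr2 overlapped, with Ly6c2 at 82.80, 122.80 and 76.03 FPKM against 36.15, 37.11 and 88.40 FPKM. In Ly6c2 aCSF1R replicates 1 and 2 were low and replicate 3 was not. Among 12 tested dendritic cell genes, 4 (Cd86, Sirpa, Itgax and Cd40) were lower without overlap, against 6.27% of all genes. Another 2 were higher without overlap, against 9.10%. The markers Zbtb46 and Batf3 differed by 0.19 and -0.02. The median of the dendritic cell list was 0.00, and 0.13 and -0.19 by content in the same order. The 3 survival genes of 1 family that share much of their sequence, Bcl2a1d, Bcl2a1b and Bcl2a1a, were lower without overlap, by -1.40, -1.33 and -1.03, whereas Mcl1, Bcl2l1 and Bcl2 differed by 0.15 to 0.21.

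Complement genes were divided. The C1q chains, the receptor C3ar1 (9.71, 13.69 and 9.39 FPKM in Ctrl-IgG and 3.37, 3.28 and 4.98 FPKM in aCSF1R) and properdin, Cfp, were lower in all 3 aCSF1R libraries. The C1q-associated proteases C1s1 and C1ra, which stromal cells also make, were higher in all 3. C1s1 was 32.04, 15.78 and 34.97 FPKM in Ctrl-IgG and 61.24, 74.77 and 58.47 FPKM in aCSF1R (difference 1.27, SE 0.31, limma unadjusted p 0.00541). Of 18 tested genes 6 were lower and 4 higher at an unadjusted p under 0.05, against 1.77% and 2.20% of all genes. The median of the list was 0.23, 0.41 among the libraries with little keratinocyte and muscle RNA and -0.45 among those holding it. C3 overlapped, at 9.35, 6.76 and 36.80 FPKM against 30.43, 42.99 and 30.15 FPKM, and its difference was -0.02 among the libraries holding keratinocyte and muscle RNA.

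Several chemokines that draw monocytes were higher in aCSF1R. Ccl3, an inflammatory chemokine of macrophages, was 9.17, 6.14 and 8.09 FPKM in Ctrl-IgG and 21.30, 22.33 and 23.08 FPKM in aCSF1R (difference 1.42, SE 0.19, limma unadjusted p 0.000185). The neighbouring Ccl4 was 29.77, 23.32 and 20.18 FPKM against 36.60, 40.02 and 37.26 FPKM. Ccl2, the main ligand of the monocyte receptor CCR2, was 492.00, 482.13 and 327.29 FPKM against 629.62, 638.42 and 696.14 FPKM (difference 0.62, SE 0.20). In these genes every aCSF1R library was above every Ctrl-IgG library, which fixes their direction within libraries of like keratinocyte and muscle content. Of 11 tested members 6 were higher in all 3 aCSF1R libraries, against 9.10% of all genes, and 5 at an unadjusted p under 0.05, against 2.20%. On the other side, 5 members had a difference below 0, of which 1 was lower in all 3 aCSF1R libraries and at an unadjusted p under 0.05. The median was 0.62, 0.28 among the libraries with little keratinocyte and muscle RNA and 0.50 among those holding it. Ccl12, Ccl9 and Ccl6 overlapped and had differences of -0.96, -0.69 and -0.17.

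Some neutrophil chemokines were also higher. Of 9 tested members 4 were higher in all 3 aCSF1R libraries, against 9.10% of all genes, and 3 had a difference below 0. Their median was 0.52, 0.70 among the libraries with little keratinocyte and muscle RNA and 0.22 among those holding it. Cxcl2 was 20.08, 5.11 and 18.49 FPKM in Ctrl-IgG and 40.35, 52.83 and 70.47 FPKM in aCSF1R (difference 2.00, SE 0.50). Cxcl3 (1.66) and Cxcl5 (1.35) were higher without overlap and Cxcl1 (0.60) with overlap. In Cxcl2 Ctrl-IgG replicate 2, the library that stood apart, was the lowest, and without it the difference was 1.42. Of 17 tested neutrophil genes only 2 were higher without overlap, a share near the 9.10% of all genes. They were the granule genes Camp (0.21 to 0.30 FPKM against 1.08 to 1.93 FPKM) and Lcn2 (9.05 to 28.52 FPKM against 32.50 to 49.72 FPKM). Camp passed the filter only through the aCSF1R libraries. S100a8 and S100a9, which keratinocytes express as well, were not separated. S100a9 was 9.47, 13.67 and 138.89 FPKM in Ctrl-IgG and 76.04, 157.10 and 78.69 FPKM in aCSF1R. The median of 17 neutrophil genes was 0.55, and it was 0.94 among the libraries with little keratinocyte and muscle RNA and -0.31 among those holding it.

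Interferon gamma response genes were higher in aCSF1R in 32 of 35 tested cases by sign, against 9003 of all 14389 genes. All 3 aCSF1R libraries exceeded all 3 Ctrl-IgG libraries in 9 of them, against 9.10% of all genes. On the higher side 7 had an unadjusted p under 0.05, against 2.20%, and 4 with the term for keratinocyte and muscle content in the fit. Gbp5, a guanylate-binding GTPase, was 24.27, 29.83 and 26.44 FPKM in Ctrl-IgG and 38.78, 44.12 and 35.33 FPKM in aCSF1R (difference 0.54, SE 0.16). Nos2, the inducible nitric oxide synthase, was 10.44, 0.91 and 7.24 FPKM against 24.77, 31.28 and 17.74 FPKM (difference 2.15, SE 0.66). Without Ctrl-IgG replicate 2, the lowest library, the Nos2 difference was 1.36. Apol6, an interferon-inducible apolipoprotein L, was 3.48, 1.12 and 4.31 FPKM against 13.01, 17.11 and 9.14 FPKM. The list's median was 0.41, 0.24 among the libraries with little keratinocyte and muscle RNA and 0.57 among those holding it. Fgl2 went the other way, at 19.51 to 32.22 FPKM against 13.08 to 16.27 FPKM, as 1 of 2 members that were lower in all 3 aCSF1R libraries.

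Ifng, the gene of the ligand, overlapped between the groups. It was 2.57, 2.18 and 1.69 FPKM in Ctrl-IgG and 2.24, 1.51 and 2.02 FPKM in aCSF1R. Interferon alpha response genes had a median of 0.14, close to the 0.12 of all genes. Of 38, 2, Zbp1 and Ifi44, were higher at an unadjusted p under 0.05, against 2.20% of all genes. MHC class I presentation genes had a median of 0.41 and 9 of 21 were higher in all 3 aCSF1R libraries, against 9.10% of all genes. Only Psmb9, an immunoproteasome subunit, was higher at an unadjusted p under 0.05 (158.04, 118.16 and 134.58 FPKM against 184.37, 182.60 and 182.72 FPKM). With the term for keratinocyte and muscle content in the fit, 0 class I genes were. H2-K1 was 2886.51, 1363.48 and 2645.92 FPKM against 3292.83, 3542.95 and 3163.96 FPKM, with Ctrl-IgG replicate 2 far below the rest. Without that library the median of the list was 0.17. Among the libraries with little keratinocyte and muscle RNA it was 0.58, and among those holding it 0.21. Of the class II molecules, H2-Aa, H2-Ab1 and H2-Eb1 overlapped, and the median of their list was 0.36, -0.01 with little of that RNA and 0.42 with it.

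**Figure D3:**
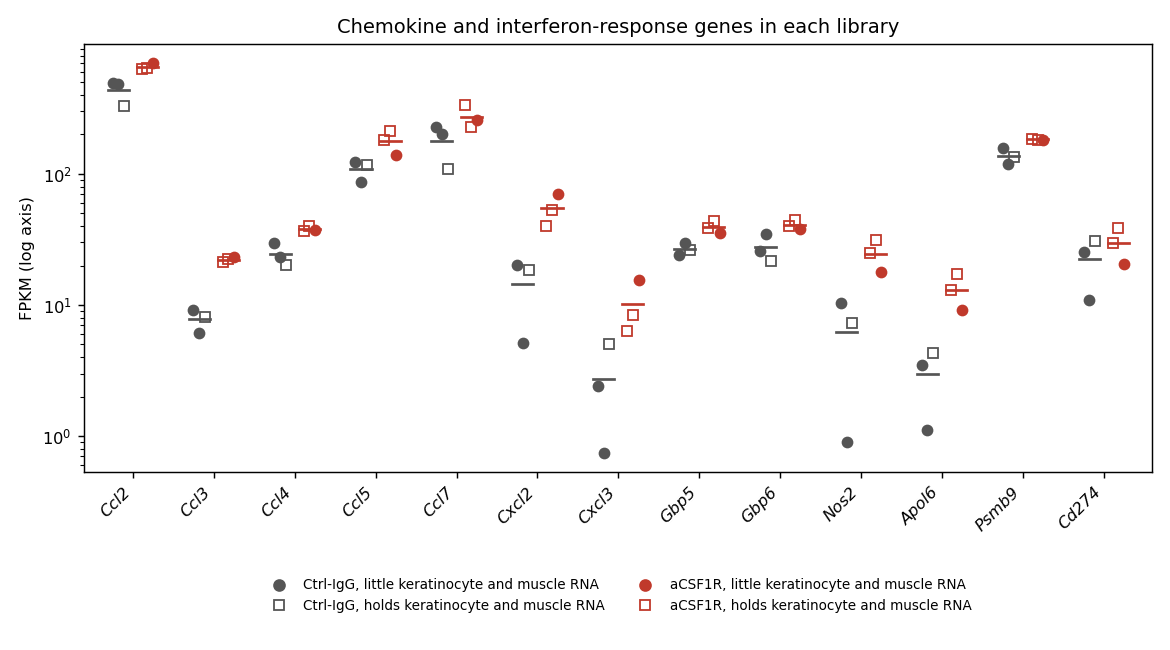
FPKM (log axis) of 13 chemokine, interferon-response and antigen presentation genes in each library, with bars at the group means (n = 3 each) and open squares for libraries holding keratinocyte and muscle RNA. Ccl3 runs from 6.14 to 9.17 FPKM in Ctrl-IgG and from 21.30 to 23.08 FPKM in aCSF1R, while Cd274 overlaps between the groups.

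Most lymphocyte genes overlapped between the groups. None of 19 tested T cell genes and none of 16 NK and cytotoxic genes had an unadjusted p under 0.05, and their medians were 0.10 and 0.03. The T cell median was -0.08 among the libraries with little keratinocyte and muscle RNA and 0.33 among those holding it, and the NK and cytotoxic median -0.10 and 0.80. None of the T cell genes was separated, while Klrk1, the activating receptor NKG2D, and Eomes, a transcription factor of NK and memory T cells, were lower in all 3 aCSF1R libraries, by -0.64 and -0.21. They were 2 of the 16 NK and cytotoxic genes, against 6.27% of all genes. Of 7 granzyme genes Gzmn was higher in all 3 (difference 0.21), against 9.10% of all genes. Of 7 B and plasma cell genes 2 were higher without overlap and at an unadjusted p under 0.05, against 9.10% and 2.20% of all genes. They were Igkc and Cd22, an inhibitory receptor of B cells. Cd22 was 0.96, 1.04 and 1.19 FPKM in Ctrl-IgG and 1.65, 2.41 and 2.92 FPKM in aCSF1R. Cd3e was 1.74, 0.99 and 1.66 FPKM in Ctrl-IgG and 2.43, 2.68 and 1.14 FPKM in aCSF1R, and Cd8b1 1.70 to 2.66 FPKM against 1.21 to 2.25 FPKM. Gzmb, a killer cell protease, was 165.14, 123.39 and 57.03 FPKM against 126.96, 126.20 and 152.34 FPKM. Ctrl-IgG replicate 3 was the lowest library in Gzmb, and the difference was 1.14 among the libraries holding keratinocyte and muscle RNA and 0.09 among the others. Il2ra, the high-affinity IL-2 receptor chain of regulatory and activated T cells, was higher without overlap, at 1.02 to 1.79 FPKM against 1.91 to 2.46 FPKM. The checkpoint genes Ctla4, Lag3, Havcr2 and Cd274 overlapped. With 3 libraries per group, a difference in the T cell and NK lists was not detectable beyond the spread, which is not evidence that lymphocytes were equal.

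Stromal genes had different medians with and without keratinocyte and muscle RNA. All 22 fibroblast and matrix genes were higher in aCSF1R by sign, with a median of 0.91. The median was 1.33 among the libraries with little keratinocyte and muscle RNA and -0.04 among those holding it. Col1a1 was 14.05, 9.84 and 91.63 FPKM in Ctrl-IgG and 83.35, 99.45 and 66.59 FPKM in aCSF1R, so that Ctrl-IgG replicate 3 was at the level of the antibody group. Fn1 (fibronectin) was separated between the groups, at 411.76, 202.57 and 387.85 FPKM against 553.56, 664.51 and 571.84 FPKM. Pdgfrb, Col5a1, Pdgfra and Fbn1 were likewise higher in all 3 aCSF1R libraries. In all, 5 of the 22 genes were, against 9.10% of all genes. Endothelial genes had a median of 0.63 over all 6 libraries and of -0.04 among the libraries holding keratinocyte and muscle RNA, and mast cell genes had 0.66 and 0.05. The part of this content in the stromal, endothelial and mast cell differences was not tested beyond these values.

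The keratinocyte and skeletal muscle lists themselves had medians of 1.48 and 0.82, with 0 of 32 and 0 of 34 tested genes at an unadjusted p under 0.05. Within the libraries holding this RNA both medians were -0.50.

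Genes of dividing and tumour cells overlapped for the most part. Cell cycle genes had a median of -0.13, and Mki67 was 31.11, 74.88 and 27.62 FPKM in Ctrl-IgG and 27.82, 26.77 and 32.38 FPKM in aCSF1R. Hypoxia and glycolysis genes had a median of 0.38 and of 0.07 without Ctrl-IgG replicate 2. The prolactin-family genes Prl2c3 and Prl2c2, near-identical copies that are abundant in this line, were lower without overlap. Prl2c3 was 94.47, 275.74 and 146.62 FPKM against 65.32, 43.76 and 56.36 FPKM (difference -1.51, SE 0.39). Of the proteases, Mmp9 was higher (2.10 to 3.28 FPKM against 5.08 to 8.21 FPKM), and Mmp12 and Mmp13 were lower, by -0.67 and -0.57, each without overlap. By its own comparisons the study named Mmp9 as raised with IL-10-Fc and BF10 but not with the antibody alone. The values here lay higher with the antibody, though limma did not call the gene.

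**Figure D4:**
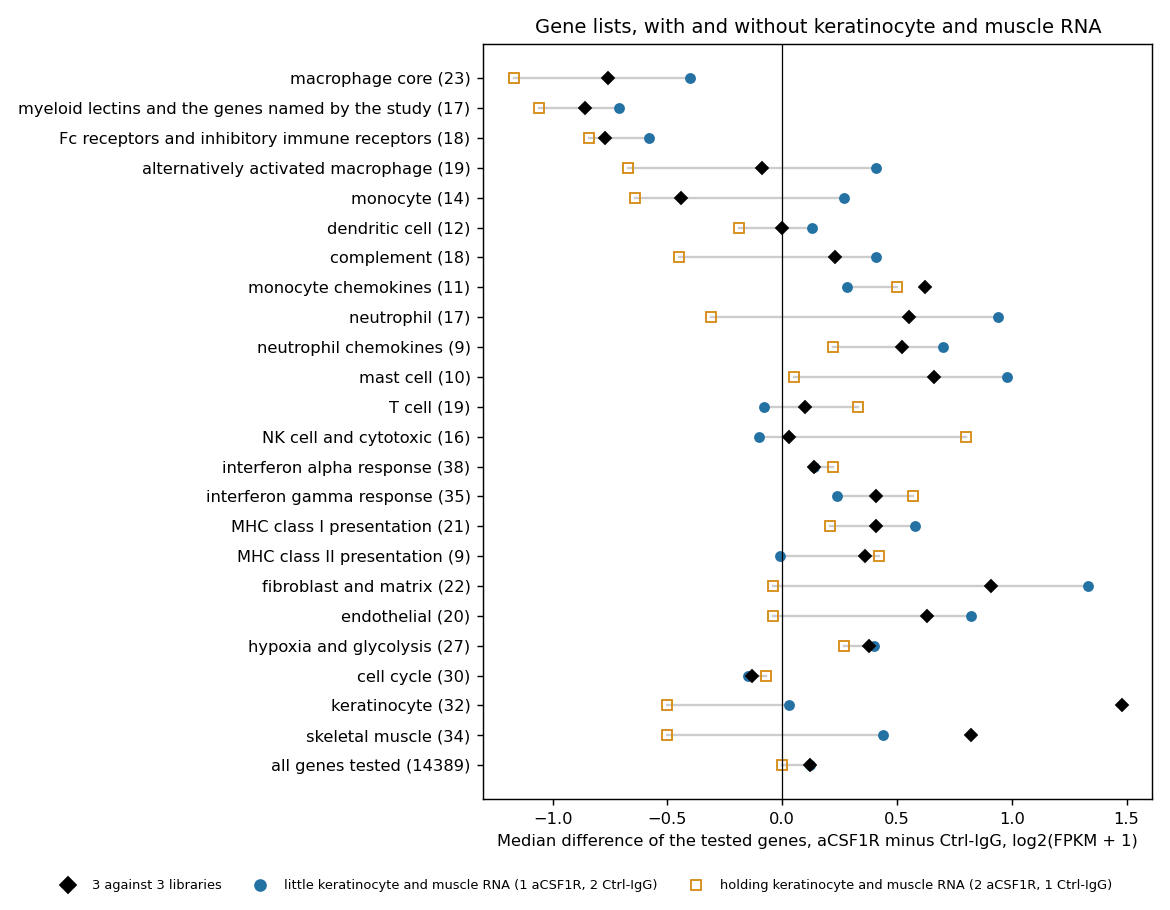
Median difference (aCSF1R minus Ctrl-IgG, log2(FPKM + 1)) of the tested genes of each list, with their number in brackets, for 3 against 3 libraries (diamonds), for libraries with little keratinocyte and muscle RNA (circles) and for libraries holding it (squares). The macrophage core, lectin and Fc receptor lists lie below 0 in all 3, a sign fixed by their genes without overlap. The fibroblast, endothelial and neutrophil lists are above 0 with little of that RNA and at or below 0 among the libraries holding it.

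Across all genes, 72 (0.500%) were lower and 80 (0.556%) higher by at least a log2 difference of 1 with no overlap between groups. Of these, 57 and 59 also met the expression limit for naming. The 10 lower genes with the smallest p were S100a3, Nppb, Clec4a1, Slamf9, Aif1, Cd180, C3ar1, C1qa, Clec4a3 and C1qc, of which 7 belong to the macrophage, lectin or complement genes above. S100a3, a calcium-binding protein, was 35.77, 34.99 and 38.35 FPKM in Ctrl-IgG and 14.90, 15.49 and 14.61 FPKM in aCSF1R (difference -1.22, SE 0.14, limma adjusted p 0.522). Its annotated span (chromosome 3, 90560578 to 90602702) overlaps those of S100a2 and Gm42674 on its strand, so part of its reads may be theirs. Nppb, which encodes brain natriuretic peptide, was 7.33, 10.97 and 9.12 FPKM against 3.38, 1.97 and 2.40 FPKM (difference -1.50, SE 0.24). Cd180, a Toll-like receptor relative of B cells and macrophages, was 8.93, 10.21 and 8.92 FPKM against 2.95, 3.43 and 4.80 FPKM.

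The 10 higher genes were Ccl3, Ms4a4d, Apela, Hcar2, Enpp2, Cstdc4, Aspg, Ccn5, Apol6 and Ugt1a6a. Hcar2, the niacin and ketone body receptor of myeloid and fat cells, was 2.30, 1.05 and 4.97 FPKM in Ctrl-IgG and 12.15, 17.16 and 12.57 FPKM in aCSF1R (difference 2.11, SE 0.40, limma unadjusted p 0.00142). Apela, a peptide ligand of the apelin receptor, was 3.06, 3.91 and 1.59 FPKM against 10.87, 9.46 and 13.88 FPKM. Enpp2, autotaxin, the enzyme that makes lysophosphatidic acid, was 15.70, 18.21 and 11.55 FPKM against 29.72, 31.66 and 36.47 FPKM. The groups were separated in all 10 by the rule that chose them. Because the groups of the 20 genes do not overlap by that rule, their direction within libraries of like content is fixed by it as well, and only the size can vary. Ugt1a6a shares exons with other Ugt1a genes and Cstdc4 belongs to a family of close copies, so their reads may be shared.

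**Figure D5:**
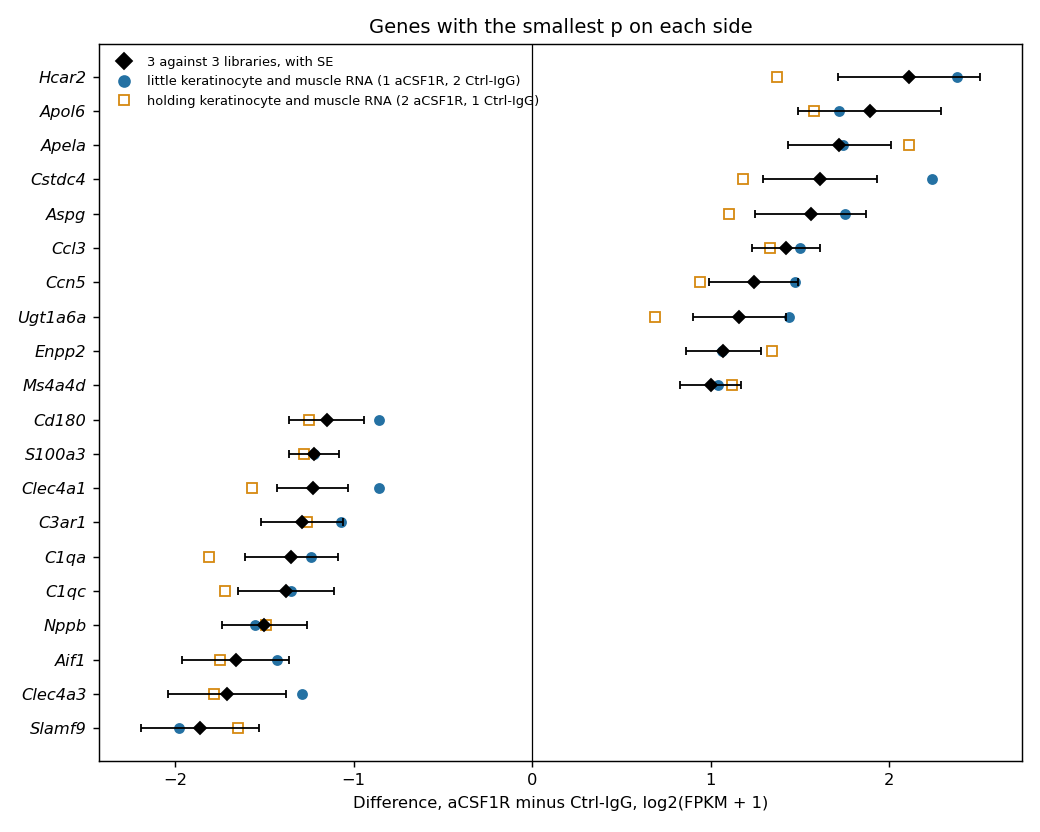
Differences (aCSF1R minus Ctrl-IgG, log2(FPKM + 1)) of the 10 lower and 10 higher genes with the smallest unadjusted p, with SE bars for 3 against 3 libraries (diamonds) and the differences within libraries with little (circles) and with much (squares) keratinocyte and muscle RNA. The smallest of the within-content differences is 0.69, of Ugt1a6a.

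The design also allows the antibody's effect to be set beside that of adding the antibody to interleukin-10, as the difference of BF10 from IL-10-Fc. These comparisons share no libraries. limma called 1 of 15813 genes (0.00632%) as different between the effects, the immunoglobulin gene Ighg3. This gene passed the expression filter only through the BF10 libraries. An unadjusted p under 0.05 was reached by 412 genes (2.61%), 95 with a lower and 317 with a higher effect in BF10 minus IL-10-Fc. With median-of-ratios size factors these numbers were 181 and 210. The macrophage core had a median difference of 0.39 in BF10 minus IL-10-Fc, where all genes tested had 0.35, against -0.76 in aCSF1R minus Ctrl-IgG, where they had 0.12. Like Ctrl-IgG replicate 2, the first and second IL-10-Fc libraries and the first BF10 library stood apart, with FPKM sums of 951051, 976950 and 855961 and 9.04%, 7.69% and 6.57% from mitochondrially encoded genes. For C1qa the IL-10-Fc libraries had 399.39, 333.52 and 274.11 FPKM and the BF10 libraries 330.43, 349.25 and 370.87 FPKM (difference 0.08, SE 0.25), and its effects differed by 1.43 (SE 0.35, limma unadjusted p 0.00194, adjusted p 1). Ccl3 was 8.87 to 22.92 FPKM in IL-10-Fc and 7.07 to 19.91 FPKM in BF10, with a difference between the effects of -1.77 (SE 0.54, limma adjusted p 1). Nppb and Enpp2 differed by -1.50 and 1.06 in BF10 minus IL-10-Fc (SE 0.47 each) and by -1.50 and 1.07 in aCSF1R minus Ctrl-IgG. In both genes the IL-10-Fc and BF10 libraries overlapped. They are the closest matches among the genes named above by the smallest p, and the effects of the others differed more. Since H2-Ea set the IL-10-Fc and BF10 libraries apart from the others, a difference between the effects cannot be told apart from a difference between the hosts or tumours of these sides.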

How the data were processed

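RNA of whole tumours was sequenced in 12 libraries, 3 per group. Per the study's methods and the labels, stranded mRNA libraries were made and aligned to mouse GRCm38. The submitters' processing notes name STAR 2.7.5a, RSEM 1.3.3 and DESeq2 1.30.0. The authors deposited FPKM values for 55401 genes, given to 2 decimals, with library sums that differ. Another 4 deposited tables hold the authors' own comparisons (fold changes and p-values) and were not used. FPKM carries no counts, so absolute depth is unknown, and relative depth was read from the steps between low values. No 2 libraries were identical.

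Genes with at least 1 FPKM in at least 3 of the 6 libraries were tested on log2(FPKM + 1), a scale that understates changes of low genes, with limma 3.58.1 in R 4.3.3 and Benjamini-Hochberg adjustment. The contrast of effects used all 12 libraries. The fit was tested on simulated data. Replicate numbers follow sample order. The labels do not say that libraries of a group came from separate mice, so p-values measure the spread between these libraries, which may be technical. An exact permutation test of 3 against 3 cannot give a p under 0.1 and was not used.

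Libraries were taken to hold keratinocyte and muscle RNA where both summed FPKM lay above the midpoint of the 6 libraries on a log scale. Members and the 45 gene lists (804 of 806 symbols found) were chosen with earlier results of these data known. Named genes were up to 4 genes per list with the smallest p plus its defining genes, every called gene, and 10 genes per direction with non-overlapping groups, a log2 difference of at least 1 and at least 5 FPKM in the higher group, without predicted, immunoglobulin or T cell receptor genes. Members named beyond the 4 are given as examples chosen after their values were seen. Alternatives changed the pseudocount, the filter, the scaling, the libraries and the covariates. Gene positions came from GENCODE M21 (99.5% of identifiers). Some items are not reported here.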

Additional observations from a re-analysis of the deposited data

Results flagged for a closer look

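The effect of adding the CSF1R antibody differed between tumours with and without interleukin-10 in 1 gene by limma. No gene was called with a pseudocount of 0.1 or without BF10 replicate 2 or 3, and 26 were called without BF10 replicate 1. Ighg3, the constant region gene of immunoglobulin G3 (chromosome 12, 113356224 to 113361232), was listed at 0 in all 3 Ctrl-IgG libraries and was 0.03, 0.07 and 0.08 FPKM in aCSF1R. In tumours given IL-10-Fc its values were 0.12, 0.03 and 0.14 FPKM, and in those given BF10 16.98, 8.51 and 11.11 FPKM. The effect in BF10 minus IL-10-Fc exceeded that in aCSF1R minus Ctrl-IgG by 3.46 on the log2(FPKM + 1) scale (SE 0.31, limma adjusted p 0.00422). Ighg3 passed the filter of at least 1 FPKM in at least 3 libraries only through the BF10 libraries, where it was high. The call is therefore not separate from that filter. Within the comparison of aCSF1R with Ctrl-IgG the gene lay under the expression limit and was not tested. H2-Ea was at 552.78 to 1726.81 FPKM in the libraries with interleukin-10 and at 0.04 to 0.27 FPKM in the others, so the sides differed in more than the treatment labels say, and its part in this result was not tested.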

How the results depend on the processing

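In the comparison of aCSF1R with Ctrl-IgG, limma called 0 genes under every alternative run, against 570 genes at an unadjusted p under 0.05. That number was 1319 among all genes above 0, 341 where the mean FPKM was 5 or more and 936 with the log2 FPKM sum as a covariate. It ranged from 234 without aCSF1R replicate 2 to 1233 without Ctrl-IgG replicate 3, was 271 and 323 without aCSF1R replicates 1 and 3, and was 889 and 1176 without Ctrl-IgG replicates 1 and 2. It was 427 with the term for keratinocyte and muscle content, an alternative chosen after seeing the data. For the difference between the effects with and without interleukin-10, the 1 called gene became 0 with a pseudocount of 0.1 and 2 with median-of-ratios size factors or among all genes above 0, where 1288 genes had an unadjusted p under 0.05 against 412. Leaving out 1 library gave 0 to 26 called genes and 236 to 2363 genes at an unadjusted p under 0.05, with 26 called when BF10 replicate 1 was dropped and 2363 when IL-10-Fc replicate 3 was. The median of the macrophage core ranged from -1.06 to -0.58 and that of the interferon gamma list from 0.29 to 0.54, while 60 of 807 alternative list medians had another sign than the main one, as in the keratinocyte list (-0.28 to 3.35). No paired analysis was possible because the replicate numbers follow sample order and the groups compared share at most 1 of the numbers in the title codes. Depth is known only relative to other libraries, and 3 libraries per group limit every comparison.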

Other observations

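Some further genes had separated groups in the comparison of aCSF1R with Ctrl-IgG and belong to no programme above. Pparg, a nuclear receptor of fat cells and macrophages, was 2.60, 3.65 and 2.91 FPKM in Ctrl-IgG and 1.13, 1.22 and 1.33 FPKM in aCSF1R (difference -0.86, SE 0.19, limma unadjusted p 0.00313). Inhba, the activin A subunit, was 1.11, 1.20 and 1.28 FPKM against 2.36, 2.50 and 2.57 FPKM (difference 0.66, SE 0.17). Tnfrsf11a, the receptor RANK of osteoclast precursors, and Acp5, an acid phosphatase of osteoclasts and macrophages, were lower by -0.57 and -1.06. The osteoclast list did not follow them, with a median of 0.30 over 8 tested genes. Of these 8, 2 were lower and 3 higher in all 3 aCSF1R libraries, against 6.27% and 9.10% of all genes. Hpgds, the prostaglandin D synthase of mast cells and macrophages, was 2.16, 3.26 and 2.02 FPKM against 1.18, 1.32 and 0.56 FPKM.

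Of the 28 tested lysosome genes, Lgmn, Ctsh and Gm2a were lower in all 3 aCSF1R libraries, against 6.27% of all genes. Another 8, among them Cd63 and Lamp1, were higher in all 3, against 9.10%. At a limma unadjusted p under 0.05, 3 of the list were lower and 1 higher. The list's median was 0.32, and 0.03 without Ctrl-IgG replicate 2. It was 0.41 among the libraries with little keratinocyte and muscle RNA and 0.01 among those holding it. Igkc, the kappa light chain, was 0.81, 3.98 and 11.89 FPKM in Ctrl-IgG and 17.40, 14.22 and 34.58 FPKM in aCSF1R, while the B cell gene Cd79a overlapped. The Igkc difference was 3.57 among the libraries with little keratinocyte and muscle RNA and 0.38 among those holding it.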
